A study of Mus musculus with 64 samples.

Results

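The transcripts of 9 adhesion molecules (*Vcam1*, *Icam1*, *Cd44*, *Itgal*, *Itga4*, *Itgam*, *Itgb1*, *Itgb2* and *Itgb7*) were followed in retinal microglia before and after intravitreal (IVT) injection of an adeno-associated virus (AAV). They were taken by symbol from a table of 25239 genes, and all 9 passed the filter on low counts at every age. The series held 64 libraries, of which 63 were in the batch-corrected table and 62 were used here. All 9 were measured as CPM, the reads of a gene per 1000000 reads counted in that library.

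Mice were heterozygous *Cx3cr1CreER:R26-tdTomato* animals on a C57BL/6J background in which tamoxifen had switched on the red reporter tdTomato, controls included. The reporter marks cells that used the *Cx3cr1* promoter when tamoxifen was given, so microglia are labeled, but the label alone does not separate them from other long-lived *Cx3cr1*-expressing cells. Naive mice, mice at day 12 (D12) and mice at day 28 (D28) after IVT injection of an AAV2 vector were compared at 3, 9 and 18 months of age in both sexes, with 600 sorted tdTomato-positive cells per library. The vector carried a CMV promoter cassette with no transgene and an oligonucleotide element against the DNA sensor TLR9. There were 7 naive, 8 D12 and 7 D28 libraries at 3 months, 5, 7 and 7 at 9 months, and 7, 7 and 7 at 18 months, from 32 female and 30 male samples. Because the injected groups had no arm given vehicle among these libraries, virus and injection cannot be told apart.

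Integrins are receptors made of an alpha and a beta subunit that hold leukocytes to vessel walls, to other cells and to matrix. *Vcam1* and *Icam1* encode immunoglobulin-superfamily ligands of integrins that cytokines induce on endothelium and on some leukocytes. *Itgal* with *Itgb2* encodes LFA-1, the main leukocyte receptor for ICAM-1, *Itgam* with *Itgb2* encodes Mac-1 or complement receptor 3, a standard surface marker of microglia, and *Itga4* pairs with *Itgb1* as VLA-4, the VCAM-1 receptor, or with *Itgb7* as a gut-homing receptor. *Cd44* encodes a receptor for hyaluronan that is prominent on activated and memory lymphocytes and on activated glia.

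The members lie on 7 chromosomes of the mouse build GRCm38, given here as the GENCODE annotation has them. *Vcam1* spans chr3:116109949-116129688 on the minus strand, and *Icam1* spans chr9:21015985-21028817 on the plus strand. *Cd44* (chr2:102811141-102901665, minus) and *Itga4* (chr2:79255426-79333123, plus) share chromosome 2, while *Itgal* (chr7:127296260-127335138, plus) and *Itgam* (chr7:128062640-128118491, plus) share chromosome 7. *Itgb1* (chr8:128685654-128733200, plus), *Itgb2* (chr10:77530252-77565708, plus) and *Itgb7* (chr15:102215995-102231944, minus) are on separate chromosomes. RefSeq promoters of the same build were matched for 6 of the 9 members, and the 250 bases before the start are shown for *Cd44*, which rose after injection, and for *Itgam*, which did not pass the test at any age. Capitals mark every match, on either strand, to the NF-kB site, the PU.1 core GAGGAA or the AP-1 site TGANTCA.
Cd44 (chr2:102901666-102901915, minus strand): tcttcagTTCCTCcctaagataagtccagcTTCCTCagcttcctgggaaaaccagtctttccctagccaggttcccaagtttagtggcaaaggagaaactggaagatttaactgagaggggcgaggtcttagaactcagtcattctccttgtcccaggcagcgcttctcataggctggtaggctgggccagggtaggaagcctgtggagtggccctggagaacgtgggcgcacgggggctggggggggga
Itgam (chr7:128062390-128062639, plus strand): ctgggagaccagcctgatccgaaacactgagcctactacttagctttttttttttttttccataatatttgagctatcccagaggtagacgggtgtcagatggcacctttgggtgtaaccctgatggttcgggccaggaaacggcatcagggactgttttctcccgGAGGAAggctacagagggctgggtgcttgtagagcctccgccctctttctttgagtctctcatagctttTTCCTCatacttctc

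The *Cd44* capitals are 2 PU.1 cores whose first bases lay at -243 and -220 from the RefSeq start, both on the strand opposite to the gene and so printed as TTCCTC. *Itgam* held PU.1 cores at -84 and -15, plus a match at 33 after the start that is not printed, and *Itgb1* and *Itgb7* held 1 each. Of 32851 promoters of 300 bases (250 before and 50 after the start), the PU.1 core was in 28.3%, the AP-1 site in 7.81% and the NF-kB site in 4.51%, and neither of the last 2 had a match in any of the 6 members. These matches describe letters and not binding, and no motif here overlapped another.

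Libraries held 1468478 to 9836173 counted reads (median 4188990), so that 3 counts, taken as the floor of detection, corresponded to 0.305 to 2.04 CPM. In the libraries used, *Xist* and Y-linked genes matched the labeled sex in 62 of 62, whereas the library left out by rule and the library present only before batch correction each went against its label. The 9 microglial markers were detected in every group, but their summed level was lower after injection (3 months, median 38742 CPM in naive, 16979 at D12 and 26710 at D28). Markers of T cells (12 of 14 in the table) summed to a median of 1.72 CPM in 3-month naive libraries (range 0 to 47.6) and 117 CPM at D12 (66.7 to 454), with 11 and then 12 of the 12 detected. The library labeled 18-month male D28 replicate 4 carried 2 labels, D28 in its title and D12 as its time point, and was analyzed as D28. It held *Vcam1* at 67.4 CPM, *Cd44* at 15.9 CPM and *Itgal* at 4.90 CPM, in each below the 3 males of 18 months at D12. Its *Cd44* and *Itgal* were also below the other 3 D28 males (16.5 to 25.9 and 12.9 to 17.3 CPM). Its *Itgb2*, at 384 CPM, lay within the range of the D12 males (297 to 599.9 CPM) and above the other D28 males (235 to 311 CPM). Set to D12 or left out, this library took the count of members past 2-fold at D28 at 18 months from 1 (*Vcam1*) to 0, and set to D12 it took the count of members whose D12 change was smaller at 18 than at 3 months from 0 to 1 (*Itgal*, log2 difference -4.67). In a bulk library of sorted cells, fewer cells of a type and less RNA per cell cannot be told apart.

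At D12, 6 of the 9 members were higher than naive at 3 months (*Vcam1*, *Icam1*, *Cd44*, *Itgal*, *Itgb2* and *Itgb7*), against 13.1% of the 12002 genes tested. At 9 months 6 of 9 were higher (*Itga4* in place of *Itgb2*), against 8.68% of 12364 genes, and at 18 months the same 6 as at 9 months, against 8.94% of 11907 genes. By edgeR 0 of the 9 were lower than naive at D12, with no negative change at an unadjusted p below 0.05 and none called by DESeq2, where 10.7%, 6.11% and 5.48% of all genes were lower at 3, 9 and 18 months. These calls rest on edgeR's quasi-likelihood test with an adjusted p below 0.05, adjusted over all genes tested. At 3 and 9 months naive libraries held *Itgal* at 2.15 CPM or less and *Itgb7* at 1.67 CPM or less. Both passed the low-count filter there only through injected libraries, and against naive they could hardly be called other than higher. This limits the counts of members higher, lower, past 2-fold or without overlap at these ages. The p-values measure the spread between these libraries, and D12 and D28 were compared with the same naive libraries. The median log2 fold change of the 9 at D12 was 1.38, 2.09 and 1.68 at the respective ages, where the median over all genes tested was -0.02, 0.04 and 0.04.

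Against a threshold of 2-fold, 4 of 9 members passed at D12 at 3 and 9 months (*Vcam1*, *Cd44*, *Itgal* and *Itgb7*), beside 4.64% and 3.93% of all genes. At 18 months *Vcam1* and *Itgal* passed, 2 of 9 beside 3.01% of all genes. By D28 the members higher than naive were 4, 4 and 3 of 9 at the respective ages, beside 4.42%, 1.6% and 2.7% of all genes, and they were *Vcam1*, *Cd44* and *Itgal* at every age with *Itgb7* at 3 and 9 months. Past 2-fold at D28 were *Vcam1* and *Itgal* at 3 months (1% of all genes), these and *Itgb7* at 9 months (0.752%) and *Vcam1* alone at 18 months (0.521%). No member was lower than naive at D28 by edgeR (2.04%, 0.615% and 1.57% of all genes were), though *Itgb1* had an unadjusted p below 0.05 at 3 and 9 months and was called lower by DESeq2 at 3 months (-0.37 ± 0.12, adjusted p = 0.0424).

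**Figure D1:**
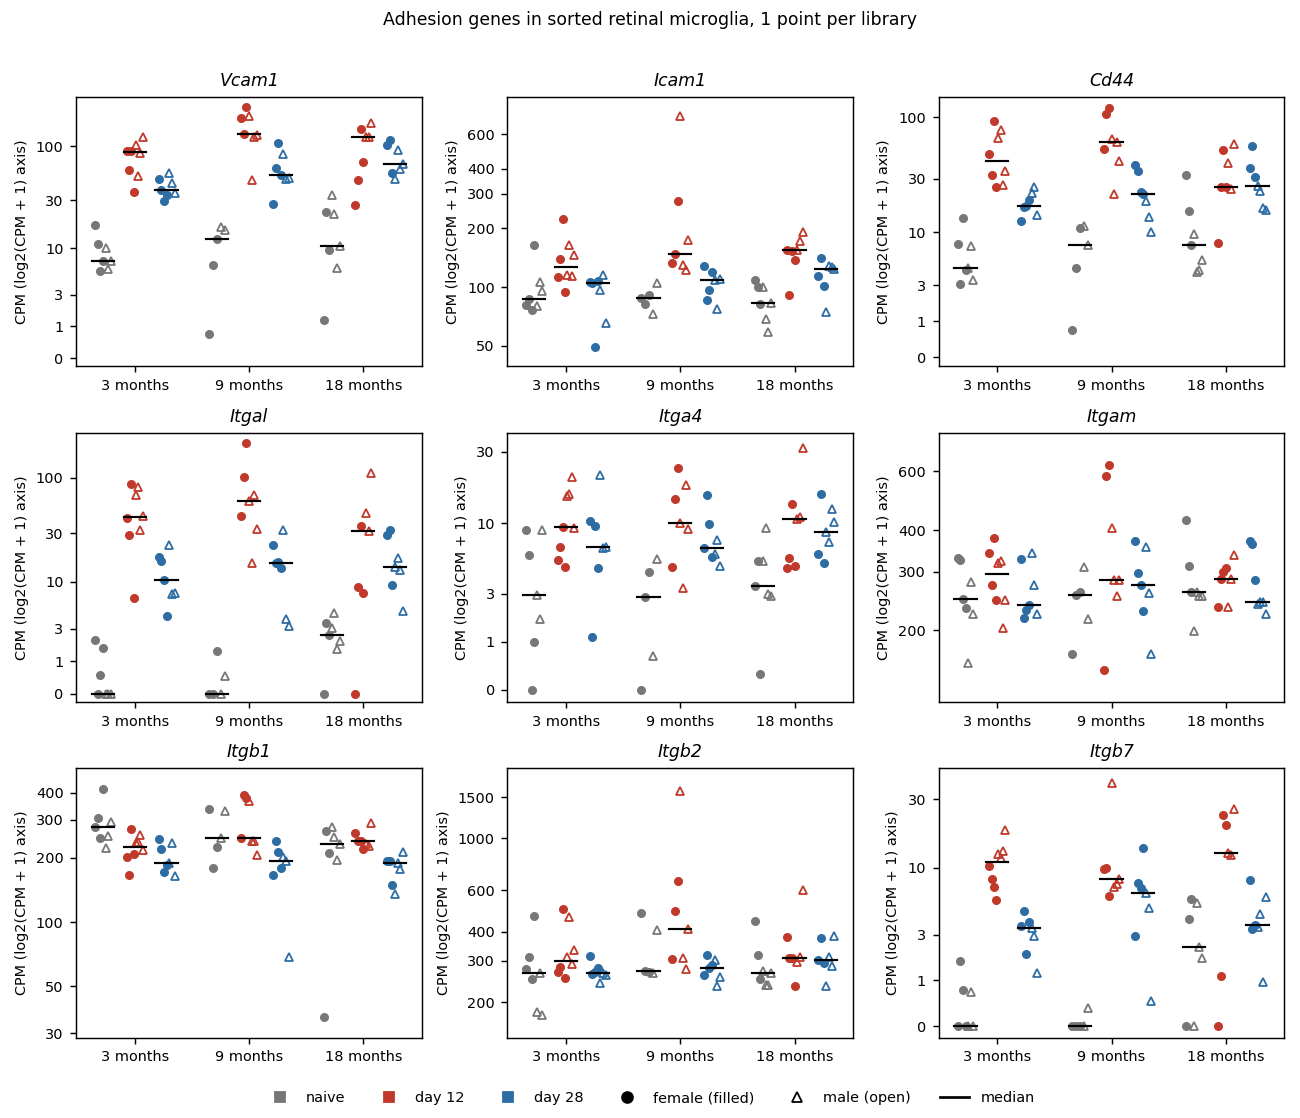
Levels (CPM) of the 9 members in each of the 62 libraries, on a log2(CPM + 1) axis whose range differs between panels; gray is naive, red day 12 and blue day 28, filled circles are female, open triangles male, and bars are medians. *Vcam1*, *Cd44*, *Itgal* and *Itgb7* have their lowest medians in naive libraries at each age and their highest at day 12, except *Cd44* at 18 months (25.5 CPM at day 12 and 25.9 CPM at day 28), with *Vcam1* medians of 7.34, 87.6 and 37.9 CPM at 3 months. *Itgam* and *Itgb1* overlap between naive and day 12 at each age.

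*Vcam1* rose at D12 at every age and was still above naive at D28. At 3 months it was at 5.75 to 17.2 CPM (median 7.34) in naive libraries, 36.0 to 123 CPM (median 87.6) at D12 and 29.5 to 55.2 CPM (median 37.9) at D28. All 8 D12 and all 7 D28 libraries were above every naive library. At 9 months the naive females were at 0.692, 6.58 and 12.5 CPM and the naive males at 16.4 and 15.2 CPM, against 47.6 to 235 CPM (median 132) at D12 and 27.5 to 107 CPM (median 53.5) at D28. The 0.692 CPM value is 3 counts, at the floor, and again no injected library reached down to the naive range.

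At 18 months *Vcam1* was at 1.31 to 34.2 CPM (median 10.4) in naive, 27.2 to 165 CPM (median 122) at D12 and 48.7 to 114 CPM (median 67.4) at D28. Here 1 D12 library, female replicate 1, fell inside the naive range, and D28 did not overlap naive. The fitted log2 fold changes at D12 were 3.24 ± 0.25 (SE; adjusted p = 2.88e-11), 3.89 ± 0.50 (1.03e-05) and 2.98 ± 0.45 (0.000119) at 3, 9 and 18 months by edgeR. At D28 they were 2.33 ± 0.25, 2.704 ± 0.467 and 2.51 ± 0.44 (adjusted p = 9.12e-08, 0.00152 and 0.00158 by edgeR). Each of these 6 calls held with any 1 library left out.

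The 2-fold call of *Vcam1* at D28 was less stable in older mice. At 18 months (adjusted p = 0.0382, edgeR) it was lost in turn without female naive replicates 1 and 3, male naive replicates 2, 3 and 4, female D28 replicates 2, 3 and 4, male D28 replicates 2, 3 and 4 or male D12 replicate 2, with adjusted p between 0.0502 and 0.117 and log2 fold changes between 2.27 and 2.62. At 9 months (0.0170) it was lost without male naive replicate 1 (2.74, adjusted p = 0.124) or male naive replicate 2 (2.65, adjusted p = 0.154).

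*Icam1* was already expressed in naive microglia and rose modestly. Its naive level was 76.9 to 165 CPM (median 87.2) at 3 months and 59.1 to 108 CPM (median 83.2) at 18 months, and at 9 months the naive values were 87.7, 82.1 and 91.5 CPM in females and 73.2 and 105 CPM in males. At D12 the range was 94.98 to 222 CPM (median 127), 123 to 741 CPM (median 147) and 90.9 to 191 CPM (median 154) at 3, 9 and 18 months. Only at 9 months did D12 and naive libraries not overlap, and the 741 CPM belonged to male replicate 1.

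The log2 fold changes of *Icam1* at D12 were 0.59 ± 0.19, 1.36 ± 0.34 and 0.98 ± 0.17 (adjusted p = 0.0200, 0.00877 and 0.000515, edgeR). Without 9-month male D12 replicate 1, the lowest value when any library was left out, the change at that age was 0.91 and still called. The call at 3 months was lost without female D12 replicate 3 (0.48, adjusted p = 0.0649), female naive replicate 1 (0.53, 0.0501) or male naive replicate 1 (0.55, 0.0613), and that at 9 months without male naive replicate 1 (1.27, 0.0509). At D28 *Icam1* was not called at any age (log2 fold changes 0.05 ± 0.19, 0.34 ± 0.33 and 0.52 ± 0.17).

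*Cd44* followed the course of *Vcam1* at 3 and 9 months. At 3 months it was at 3.10 to 13.7 CPM (median 4.52) in naive, 25.1 to 92.6 CPM (median 42.0) at D12 and 12.7 to 25.4 CPM (median 17.2) at D28. At 9 months the naive females were at 0.692, 4.58 and 10.97 CPM and the naive males at 11.5 and 7.61 CPM, with 22.1 to 118 CPM (median 61.7) at D12 and 10.1 to 39.6 CPM (median 22.2) at D28. D12 did not overlap naive at either age, whereas 1 of the 7 D28 libraries fell inside the naive range at each of these ages.

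At 18 months *Cd44* was at 4.19 to 32.2 CPM (median 7.60) in naive, 8.01 to 59.1 CPM (median 25.5) at D12 and 15.9 to 57.2 CPM (median 25.9) at D28. The groups overlapped through naive female replicate 1, at 32.2 CPM, and D12 female replicate 1, at 8.01 CPM. The log2 fold changes at D12 were 3.10 ± 0.33, 3.18 ± 0.44 and 1.90 ± 0.37 (adjusted p = 1.50e-08, 2.47e-05 and 0.00130, edgeR), and at D28 1.72 ± 0.33, 1.61 ± 0.41 and 1.59 ± 0.37 (0.000782, 0.0374 and 0.0148). The D12 calls held with any library left out.

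Of the D28 calls of *Cd44*, that at 3 months held with any library left out and that at 18 months was lost without female D28 replicate 3 (1.46, adjusted p = 0.0531, edgeR). The 9-month D28 call was lost with any of 11 of the 19 libraries left out, namely female naive replicate 2, male naive replicates 1 and 2, female D12 replicates 2 and 3, male D12 replicate 4, female D28 replicates 1, 2 and 3 and male D28 replicates 2 and 3, with adjusted p between 0.0517 and 0.277 and log2 fold changes between 1.45 and 1.78.

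*Itgal*, the alpha subunit of LFA-1, was close to the floor in naive libraries and had the largest fitted rise of the 9 at D12 at each age. At 3 months 4 of 7 naive libraries had 0 counts and the highest was at 2.15 CPM, against 6.73 to 88.1 CPM (median 42.5) at D12 and 4.31 to 23.2 CPM (median 10.5) at D28. At 9 months the naive females were at 0, 0 and 1.496 CPM and the naive males at 0 and 0.476 CPM, against 15.5 to 211 CPM (median 61.0) at D12 and 3.30 to 32.1 CPM (median 15.2) at D28. Injected and naive libraries did not overlap at either age. Pooled over libraries, *Itgal* rested on 21 naive counts at 3 months and 9 at 9 months, which gave ratios of D12 to naive of 68.7 (95% exact interval 44.8 to 111) and 197 (104 to 432). Intervals on pooled counts leave out the spread between libraries. The libraries carried no molecular identifiers, so amplified copies were counted as separate reads and these intervals may be too narrow even for counting error.

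At 18 months *Itgal* was at 0 to 4.59 CPM (median 2.53) in naive, 0 to 111 CPM (median 31.6) at D12 and 4.90 to 32.2 CPM (median 14.0) at D28. The D12 library at 0 was female replicate 1, whose 1872076 reads put the floor at 1.60 CPM, and the other 6 D12 libraries were at 7.65 CPM or more. The fitted log2 fold changes at D12 were 8.11 ± 0.71, 7.54 ± 0.83 and 3.68 ± 0.64 (adjusted p = 7.16e-10, 1.61e-06 and 0.000488, edgeR), and at D28 6.17 ± 0.76, 5.35 ± 0.79 and 2.82 ± 0.63 (1.69e-06, 0.000329 and 0.0112). Against naive groups this near 0, the size of the fitted change depends on edgeR's prior count. All 6 calls held with any 1 library left out.

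*Itgb7*, the beta subunit that joins *Itga4* in the gut-homing integrin, was also close to the floor in naive libraries. At 3 months 6 of 7 naive libraries were at or under the floor (highest 1.67 CPM), against 5.69 to 18.5 CPM (median 10.9) at D12 and 1.24 to 4.74 CPM (median 3.40) at D28. At 9 months 4 naive libraries were at 0 and male replicate 2 at 0.317 CPM (2 counts), against 6.17 to 38.8 CPM (median 8.27) at D12 and 0.472 to 13.9 CPM (median 6.50) at D28. D12 did not overlap naive at either age. The pooled ratio of D12 to naive was 24.9 (14.4 to 47.3) at 3 months and 132 (36.2 to 1092) at 9 months, where it rested on 2 naive counts.

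At 18 months *Itgb7* was at 0 to 5.83 CPM (median 2.29) in naive, 0 to 25.8 CPM (median 12.8) at D12 and 0.959 to 8.06 CPM (median 3.65) at D28, and the groups overlapped. The log2 fold changes at D12 were 4.77 ± 0.64, 7.23 ± 1.02 and 2.42 ± 0.79 (adjusted p = 1.24e-06, 4.60e-05 and 0.0430, edgeR), and at D28 2.96 ± 0.66, 6.29 ± 1.01 and 0.65 ± 0.78 (0.00380, 0.000962 and 0.772). The 18-month D12 call was lost with any of 12 of the 21 libraries left out, namely female naive replicates 1 and 2, male naive replicates 1, 3 and 4, female D12 replicates 3 and 4, male D12 replicates 1, 2 and 3 and female D28 replicates 2 and 3, with adjusted p between 0.0512 and 0.101 and log2 fold changes between 2.13 and 2.50. The calls at 3 and 9 months held with any library left out.

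*Itga4*, the alpha subunit of VLA-4, was low throughout and passed the edgeR test at 9 and 18 months. Its range was 0 to 9.09 CPM (median 2.94) in naive and 4.92 to 20.6 CPM (median 9.41) at D12 at 3 months, and 0.253 to 9.32 CPM (median 3.48) and 4.81 to 31.8 CPM (median 10.7) at 18 months. At 9 months the naive values were 0, 2.79 and 4.49 CPM in females and 0.629 and 5.55 CPM in males, with 3.32 to 23.3 CPM (median 10.02) at D12. Naive and D12 libraries overlapped at every age. The log2 fold changes at D12 were 1.38 ± 0.54, 2.09 ± 0.67 and 1.68 ± 0.48 (adjusted p = 0.0626, 0.0376 and 0.0209, edgeR).

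The 9-month call of *Itga4* was lost without female D12 replicate 2 (2.08, adjusted p = 0.0621), female D12 replicate 3 (1.88, 0.0909), male D12 replicate 3 (1.89, 0.0805), male D12 replicate 4 (2.12, 0.0519) or male naive replicate 1 (1.70, 0.164), and the 18-month call without female D12 replicate 3 (1.42, 0.0611) or male D12 replicate 3 (1.40, 0.0630). At 3 months the call appeared without female naive replicate 1 (1.75, 0.0211), male naive replicate 3 (1.81, 0.0278) or female D28 replicate 2 (1.38, 0.0488). *Itga4* was also called at 3 months by DESeq2 (1.36 ± 0.52, adjusted p = 0.0375) and by edgeR in males alone (1.89). Whether it passed at 3 months thus depended on the method.

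The remaining integrin subunits were abundant before injection and moved little. *Itgam* was at 160.1 to 329.5 CPM, 170.3 to 311 CPM and 199 to 428 CPM in naive libraries of 3, 9 and 18 months, and at 203 to 378 CPM, 152 to 627 CPM and 234 to 336 CPM at D12. *Itgb1*, the common beta subunit of the matrix-binding integrins, was at 223 to 416 CPM, 179.5 to 338 CPM and 35.7 to 277 CPM in naive and at 166 to 273 CPM, 206 to 391 CPM and 221 to 288 CPM at D12. Neither passed the test against naive on either day at any age, and their log2 fold changes at D12 lay between -0.23 and 0.54. The 35.7 CPM of *Itgb1* belonged to 18-month naive female replicate 1, the library with the highest naive *Cd44*. At 9 months the *Itgam* call appeared without female D12 replicate 1 (0.74, adjusted p = 0.0262, edgeR).

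*Itgb2*, which serves both LFA-1 and Mac-1, was at 176 to 468 CPM (median 266) in naive and 253 to 499 CPM (median 301) at D12 at 3 months. That difference was called (log2 fold change 0.47 ± 0.15, adjusted p = 0.0191, edgeR), although the ranges overlapped and the call was lost without female D12 replicate 3 (0.36, 0.0601), female naive replicate 1 (0.41, 0.0502), male naive replicate 1 (0.43, 0.0603) or male naive replicate 3 (0.41, 0.0690). At 9 months *Itgb2* was at 266 to 481 CPM in naive and 278 to 1594 CPM at D12 (0.68 ± 0.32, adjusted p = 0.169), and at 18 months at 236 to 443 CPM and 235 to 599.9 CPM (0.42 ± 0.16, adjusted p = 0.0919). The 1594 CPM came from 9-month male D12 replicate 1, the library with the highest *Icam1*, and the 18-month call appeared without female naive replicate 1 (0.54, adjusted p = 0.0307).

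**Figure D2:**
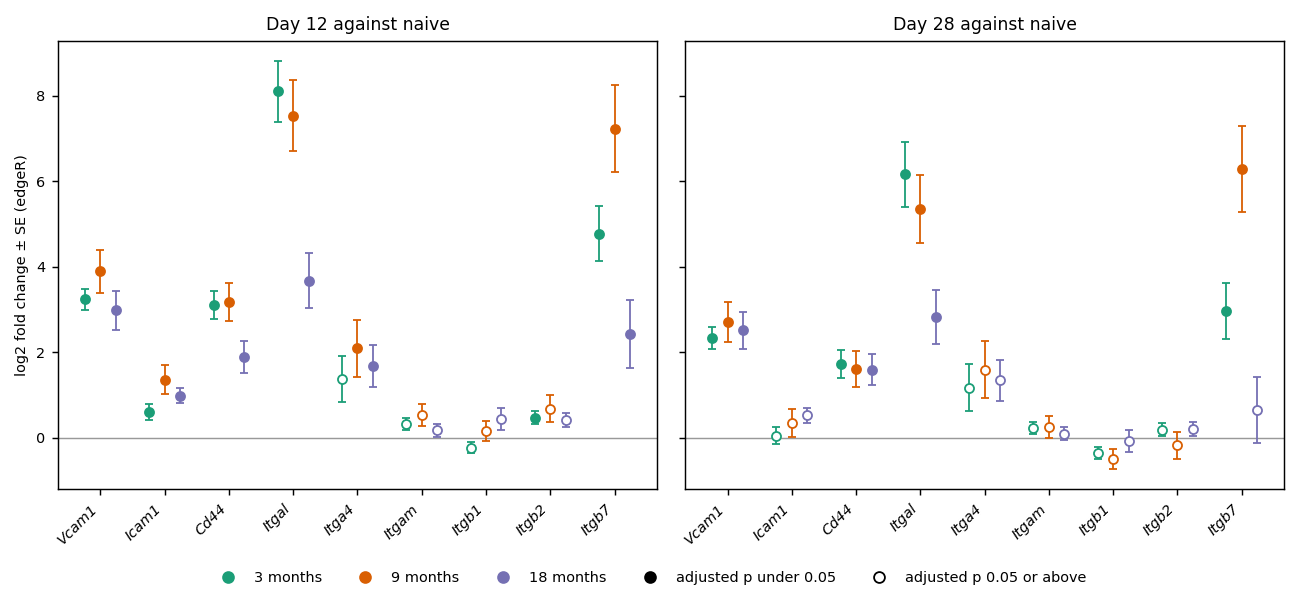
Log2 fold changes against naive with their standard errors at day 12 (left) and day 28 (right) for each member and age; filled points passed an adjusted p of 0.05 in edgeR and open points did not. *Vcam1*, *Cd44* and *Itgal* are filled at every age on both days, *Itgal* reaches 8.11 at 3 months, and no filled point lies below 0.

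Per kilobase of exon, which allows levels to be set beside each other, the order in naive libraries was *Itgb2* (median 88.5 CPM per kilobase over 19 libraries), *Itgb1* (61.1), *Itgam* (50.9), *Icam1* (20.004), *Vcam1* (1.12), *Cd44* (1.09), *Itga4* (0.213), *Itgal* (0.0729) and *Itgb7* (0). The ranges of *Itgb2* (57.6 to 158), *Itgb1* (8.75 to 102) and *Itgam* (31.9 to 85.2) overlapped, as did those of *Vcam1* (0.0781 to 3.86) and *Cd44* (0.102 to 4.76). Over the 22 D12 libraries *Vcam1* reached a median of 12.7, *Cd44* 6.73, *Itgal* 6.46 and *Itgb7* 3.63 CPM per kilobase, still below *Icam1* at 33.5 and *Itgb2* at 102. Exon lengths are the union over all annotated transcripts, so a gene using a short isoform is understated.

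The decline from D12 to D28 was called for 4 of 9 members at 3 months, for 3 at 9 months and for none at 18 months, beside 3.76%, 3.46% and 0.823% of all genes lower. At 3 months these were *Vcam1* (log2 fold change -0.91 ± 0.22, adjusted p = 0.00909, edgeR), *Cd44* (-1.38 ± 0.30, 0.00289), *Itgal* (-1.94 ± 0.41, 0.00276) and *Itgb7* (-1.81 ± 0.52, 0.0280). *Itgb7* at D28 lay wholly below D12 at this age, and its call was lost without female D12 replicate 1 (-1.73, 0.0583), male D12 replicate 4 (-1.71, 0.0706), female D28 replicate 3 (-1.72, 0.0556), male D28 replicate 2 (-1.91, 0.0579) or male D28 replicate 3 (-1.64, 0.101). The *Icam1* value (-0.54 ± 0.19, adjusted p = 0.0758) was called without female D12 replicate 4 (-0.60, 0.0481) or female naive replicate 4 (-0.54, 0.0346).

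At 9 months the members lower at D28 than at D12 were *Cd44* (-1.57 ± 0.35, adjusted p = 0.0102, edgeR), *Itgal* (-2.19 ± 0.49, 0.0101) and *Icam1* (-1.01 ± 0.30, 0.0459). The *Icam1* call was lost with any of 10 of the 19 libraries left out (female D12 replicates 2 and 3, male D12 replicate 1, female D28 replicates 1, 2, 3 and 4 and male D28 replicates 2, 3 and 4), with adjusted p between 0.0568 and 0.133, and its change was -0.57 without male D12 replicate 1. *Vcam1* (-1.19 ± 0.37, adjusted p = 0.0602) was called without female naive replicate 1 (-1.19, 0.0120), female naive replicate 3 (-1.23, 0.0422), male D12 replicate 2 (-1.32, 0.0191) or female D28 replicate 3 (-1.44, 0.0289). *Itgb2* (-0.86 ± 0.29, 0.0814) was called without male D12 replicate 2 (-0.98, 0.0262) or male D12 replicate 3 (-1.01, 0.0393), and without male D12 replicate 2 the number called was 5. DESeq2 called 6 members at 9 months.

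At 18 months the D28 to D12 changes were -0.47 ± 0.41 for *Vcam1*, -0.30 ± 0.35 for *Cd44* and -0.86 ± 0.56 for *Itgal*. With edgeR 2 members had an unadjusted p below 0.05 (*Icam1* and *Itgb7*) and 0 were called, and DESeq2 also called 0. Median *Cd44* stayed at 25.5 and 25.9 CPM, while *Itgb7* went from a median of 12.8 to 3.65 CPM with overlapping ranges. *Itgb1* at D28 (136 to 212 CPM) lay wholly below D12 (221 to 288 CPM), and this change (-0.52 ± 0.25, adjusted p = 0.365) was called without female naive replicate 1 (-0.52, adjusted p = 0.0325).

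Counted by overlap alone, 4 members at 3 months, 5 at 9 months and 0 at 18 months had every D12 library above every naive one, beside 3.56%, 2.69% and 0.857% of all genes tested. For D28 the counts were 2, 3 and 2, beside 1.46%, 1.51% and 1.14%. At 18 months the overlap at D12 involved female replicate 1, which was at or inside the naive range for *Vcam1*, *Cd44*, *Itgal* and *Itgb7* and held 3.74 CPM of T cell markers. Without this library *Cd44* at D12 (log2 fold change 2.05, adjusted p = 0.0158, edgeR) and *Itgal* at D28 (2.82, 0.0285) also passed 2-fold at 18 months, and *Cd44* did so as well without female naive replicate 1 (2.23, 0.0159) or male naive replicate 1 (2.05, 0.0477). At 3 months *Cd44* at D28 passed 2-fold without female naive replicate 3 (1.99, 0.0344) and *Itgb7* without female naive replicate 2 (3.58, 0.0104), male naive replicate 2 (4.59, 0.0199) or male D28 replicate 3 (3.13, 0.0450).

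Samples were collected on 2 days, and the deposited table had been corrected for that batch. In the uncorrected counts, the differences were computed within each collection day on log2 CPM with 2 counts added. *Vcam1*, *Cd44*, *Itgal* and *Itga4* were higher than naive in 6 of 6 pairs of age and collection day at both D12 and D28. The D12 differences ranged from 2.38 to 5.08 for *Vcam1*, 0.78 to 3.66 for *Cd44*, 1.77 to 6.64 for *Itgal* and 0.19 to 3.48 for *Itga4*. *Icam1*, *Itgb2* and *Itgb7* were higher in 6 of 6 at D12, whereas *Itgam* was higher in 5 and *Itgb1* in 3.

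**Figure D3:**
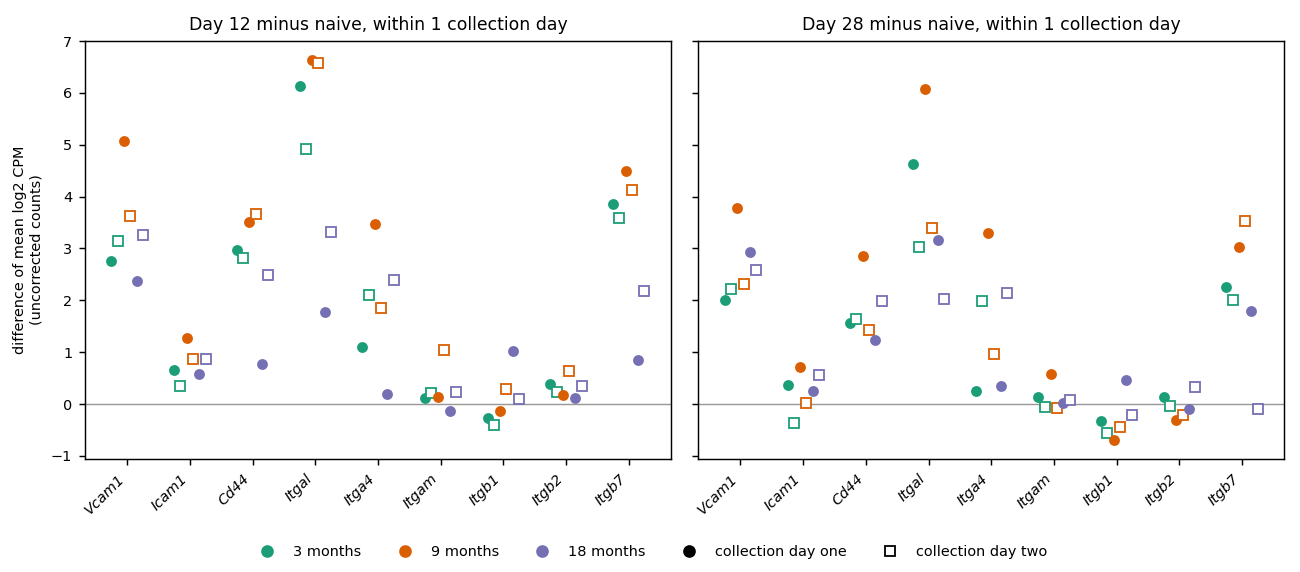
Difference of mean log2 CPM (2 counts added, uncorrected counts) between injected and naive libraries within each collection day, for day 12 (left) and day 28 (right); colors are ages, filled circles the first and open squares the second collection day. *Vcam1*, *Cd44*, *Itgal* and *Itga4* lie above 0 in 6 of 6 pairs on both days, with *Vcam1* between 2.38 and 5.08 at day 12.

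T cells carry *Itgal*, *Itga4*, *Itgb7* and *Cd44* at high levels, so the summed T cell markers are given beside these members. At D12 the sum ranged over 66.7 to 454 CPM at 3 months, 60.2 to 196 CPM at 9 months and 3.74 to 508 CPM at 18 months, and at D28 over 20.1 to 118 CPM, 34.0 to 218 CPM and 27.2 to 167 CPM. At 9 months naive libraries were at 0 to 9.23 CPM, with *Cd3d*, *Cd3e*, *Cd247* and *Cd8a* at 0 in all 5, and at D12 all 12 markers were detected. The summed markers were thus higher on the same days as *Itgal* and *Itgb7*, and their part in those changes was not tested.

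Single libraries, chosen after their values were seen, show how the sum and the members stood in the same sample. At 18 months naive male replicates 2 and 4 held 233 and 133 CPM of T cell markers, within the D12 range, with *Itgal* at 4.59 and 2.09 CPM, *Cd44* at 4.19 and 5.47 CPM, *Vcam1* at 22.3 and 10.4 CPM and *Itgb7* at 5.40 and 1.82 CPM. Their *Itga4* was at 9.32 and 2.87 CPM. Among all naive libraries replicate 2 had the highest *Itgal* and *Itga4*, and its *Itgb7* was below only 18-month female replicate 3 (5.83 CPM). At 3 months D12 male replicate 4 held 66.7 CPM of T cell markers with *Itgal* at 43.5 CPM, *Cd44* at 35.01 CPM, *Vcam1* at 123 CPM and *Itgb7* at 18.5 CPM. In 18-month D12 female replicate 4, 224 CPM of T cell markers went with *Itgal* at 7.65 CPM, *Cd44* at 25.1 CPM, *Vcam1* at 70.8 CPM and *Itgb7* at 19.95 CPM. The libraries with the lowest and highest sums at D12 were both of 18 months. Female replicate 1 held 3.74 CPM of T cell markers with *Itgal* and *Itgb7* at 0, *Cd44* at 8.01 CPM and *Vcam1* at 27.2 CPM. Male replicate 3 held 508 CPM with *Itgal* at 111 CPM, *Itgb7* at 25.8 CPM, *Cd44* at 59.1 CPM and *Vcam1* at 165 CPM.

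Natural killer and monocyte markers also varied. At D12 the NK list of 6 genes summed to a median of 23.8, 35.7 and 75.2 CPM at 3, 9 and 18 months (naive 1.79, 1.195 and 46.7 CPM), and the monocyte list of 6 to 27.9, 54.4 and 161 CPM (naive 26.0, 28.4 and 36.3 CPM). The monocyte sum mixes genes that moved in opposite directions. Over all ages, median *F13a1* went from 20.1 CPM in naive to 0 at D12. Median *Ly6c2* went from 0 to 26.4 CPM, *Plac8* from 5.27 to 21.8 CPM, *Ccr2* from 1.09 to 5.25 CPM and *Vcan* from 0 to 0.579 CPM, with *Chil3* at 0 in both. The part of NK and monocyte markers in the members' changes was not tested. For *Vcam1* and *Icam1*, which vessel cells also make, the endothelial markers *Cldn5* and *Sox17* were at 0 in 21 and 22 of the 22 D12 libraries, with *Cldn5* at most 0.269 CPM. The whole list of 8 endothelial markers ranged over 0.462 to 81.5 CPM in naive, 6.47 to 49.6 CPM at D12 and 21.0 to 142 CPM at D28. Within it, median *Flt1* was 3.36 CPM in naive, 8.38 CPM at D12 and 37.1 CPM at D28, and median *Kdr* 7.84, 10.2 and 8.55 CPM. The part of these markers in the changes of *Vcam1* and *Icam1* was not tested. The 5 pericyte markers summed to 15.4 CPM or less at D12. Photoreceptor markers had naive medians of 2004, 2438 and 2092 CPM at 3, 9 and 18 months and D12 medians of 884, 702 and 959 CPM. Muller glia markers had naive medians of 316, 322 and 354 CPM and D12 medians of 401, 327 and 308 CPM. Among the latter, over all ages, median *Slc1a3* went from 99.2 to 186 CPM and *Glul* from 192 to 141 CPM. The part of these retinal markers in the members' changes was not tested. B cell, dendritic cell and neutrophil lists had medians no higher at D12 than 53.4, 11.8 and 1.52 CPM, while border macrophage markers had naive medians of 125 to 266 CPM and D12 medians of 4.79 to 5.26 CPM.

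**Figure D4:**
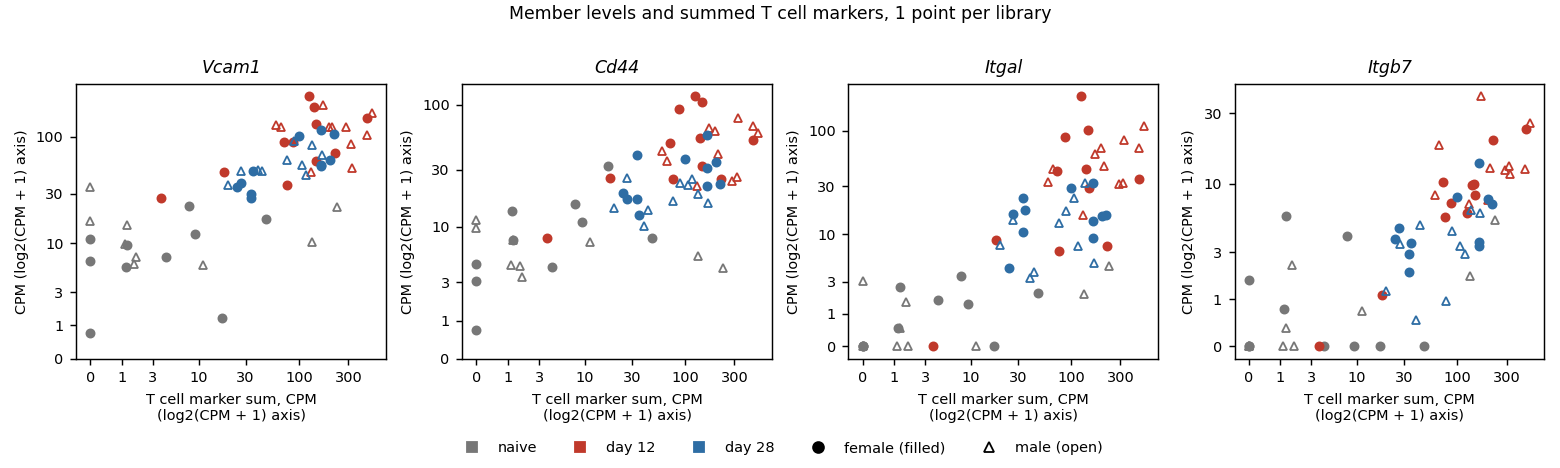
Levels of *Vcam1*, *Cd44*, *Itgal* and *Itgb7* (vertical) against the sum of 12 T cell markers (horizontal) in each of the 62 libraries, both as CPM on log2(CPM + 1) axes; gray is naive, red day 12 and blue day 28, filled circles are female and open triangles male. Most injected libraries lie to the upper right. The 2 naive male libraries at 133 and 233 CPM of T cell markers lie below every injected library in *Vcam1* and *Cd44* but among injected libraries in *Itgal* (2.09 and 4.59 CPM) and *Itgb7* (1.82 and 5.40 CPM), and 1 day 12 library lies at 3.74 CPM.

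In fits of 1 sex, *Vcam1*, *Cd44*, *Itgal* and *Itgb7* were called at D12 in both females and males at 3 and 9 months, and the other members called with both sexes were not. *Itgb2* at 3 months was called in males (0.84 ± 0.19, adjusted p = 0.00537, edgeR) and not in females (0.10 ± 0.21, 0.815), *Icam1* was called at 9 months in females (1.01 ± 0.26, 0.0301) and not in males (1.77 ± 0.63, 0.174) and at 3 months in neither, and *Itga4* at 9 months in neither. At 3 months *Vcam1* rose by 2.85 ± 0.34 (log2) in females and 3.63 ± 0.34 in males, *Cd44* by 2.84 ± 0.43 and 3.36 ± 0.43, and *Itgb7* by 3.83 ± 0.88 and 5.68 ± 0.88. At 9 months *Vcam1* rose by 4.76 ± 0.73 in females and 3.08 ± 0.53 in males, and *Cd44* by 3.97 ± 0.63 and 2.44 ± 0.52. At 18 months the 4 females at D12 gave no called member (*Vcam1* 2.94 ± 0.77, adjusted p = 0.241; *Cd44* 0.88 ± 0.62, 0.580), while the 3 males did (*Vcam1* 3.05 ± 0.40, adjusted p = 6.55e-05; *Cd44* 2.93 ± 0.37, 4.45e-05). The 18-month females included D12 replicate 1 (*Itgal* at 0) and naive replicate 1 (*Vcam1* at 1.31 CPM and *Cd44* at 32.2 CPM). The share of all genes called in fits of 1 sex is not given here, so these calls cannot be set against it.

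Tested directly, none of these sex differences was called at an adjusted p below 0.1. By edgeR 0 of 9 members differed between sexes in the D12 change at 3, 9 or 18 months (2, 0 and 2 members at an unadjusted p below 0.05, and 0 by DESeq2 at each age, with 2 members given no adjusted p at 3 months), beside 0.0583%, 0.00809% and 0% of all genes. For the D28 change 0 of 9 differed (1, 1 and 0 at an unadjusted p below 0.05, 0 by DESeq2), beside 0.00833%, 0% and 0% of all genes. The male minus female difference at D12 was 5.74 ± 1.96 for *Itgal* at 3 months (adjusted p = 0.380), where all 3 naive males were at 0 counts, and 2.05 ± 0.72 for *Cd44* at 18 months (0.617). Without the low-count filter, which changes the genes sharing the adjustment and the variance trend, 1 member was called at 3 months on each day.

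Between ages, naive microglia gave no called member. By edgeR 0 of 9 differed at 9 against 3 months and 0 at 18 against 3 months (0 and 2 at an unadjusted p below 0.05, 0 by DESeq2), beside 0% and 0.0651% of all genes. The unadjusted cases were *Itgal* (median 0 CPM at 3 and 2.53 CPM at 18 months; log2 difference 3.82 ± 1.37, adjusted p = 0.9999) and *Itgb7* (0 and 2.29 CPM; 2.82 ± 1.27). At D12 0 of 9 differed at 9 and at 18 months (4 and 0 unadjusted, 0 by DESeq2), beside 2.01% and 1.68% of all genes, with *Vcam1* 0.86 ± 0.32 higher at 9 than at 3 months (adjusted p = 0.242), a difference that was called without 9-month male D12 replicate 2 (1.001, adjusted p = 0.0864).

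At D28 0 of 9 differed at 9 and at 18 months by edgeR (1 and 2 unadjusted), beside 0% and 0.22% of all genes, while DESeq2 called 0 and 1. The 1 was *Vcam1* at 18 against 3 months (median 67.4 and 37.9 CPM), with a log2 difference of 0.88 ± 0.23 and an adjusted p of 0.169 in edgeR and 0.0478 in DESeq2. The edgeR call appeared without 18-month female D28 replicate 4 (0.99, 0.0955), 9-month female D28 replicate 1 (0.88, 0.0453) or 9-month female D28 replicate 3 (0.88, 0.0773). A sex difference in the contrast of 18 with 3 months was called for 0 of 9 members in naive, D12 and D28 libraries (1, 0 and 2 unadjusted, 0 by DESeq2), beside 0%, 0% and 0% of all genes.

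The change after injection was also compared between ages. At D12 0 of 9 members changed differently at 9 than at 3 months and 0 at 18 than at 3 months by edgeR (1 and 4 at an unadjusted p below 0.05), beside 0.0368% and 0.155% of all genes, and DESeq2 called 0 and 1. That 1 was *Itgal*, whose rise was smaller at 18 months, with a log2 difference of -4.47 ± 1.26 in edgeR (adjusted p = 0.132) and -4.06 ± 1.05 in DESeq2 (0.0299), with naive medians of 0 CPM at 3 and 2.53 CPM at 18 months. Values for *Cd44* and *Itgb7* were -1.22 ± 0.51 (0.339) and -2.37 ± 1.02 (0.360). At D28 0 of 9 differed at either age (1 and 2 unadjusted, 0 by DESeq2), beside 0% and 0% of all genes.

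Across the 62 libraries, the genes whose log2 CPM ran most closely with each member were found by Pearson's correlation over 13584 genes, as a description, since the libraries share days and ages. *Vcam1* ran closest to *Nlrc5*, the transactivator of MHC class I genes (r = 0.911), *Iigp1*, an interferon-inducible GTPase (0.901), and *Gpr18* (0.898). *Itgal* ran closest to *Nlrc5* (0.897), *Gm1966* (0.888) and *Cxcl9*, an interferon-induced chemokine (0.885), and *Cd44* to *Axl*, a receptor for bridging ligands of dying cells (0.890), *Nlrc5* (0.866) and the complement gene *C4b* (0.860). *Itga4* listed *Nlrc5* (0.755), *Vcam1* (0.717) and *Parp11* (0.709), and *Itgb7* listed *Gimap4* (0.839), *Id2* (0.826) and *Itgal* (0.824).

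*Icam1* ran with another set, namely *Socs3*, an inhibitor of cytokine signaling (0.833), *Pik3ap1* (0.831) and *Tlr2*, a receptor for bacterial lipoproteins (0.817). *Itgb2* listed *Tapbp* (0.886), *Ptpn6* (0.876) and *Cndp2* (0.860), *Itgam* listed *Eef2* (0.775), *Cmip* (0.763) and *Baz1b* (0.762), and *Itgb1* listed *Ppp4r3b* (0.827), *Golph3l* (0.808) and *Tmem123* (0.805). Among the members themselves, *Vcam1* and *Itgal* ran together at 0.878, *Cd44* and *Itgal* at 0.854 and *Icam1* and *Itgb2* at 0.794, against 0.358 for the subunits *Itgal* and *Itgb2* of LFA-1 and 0.0267 for the subunits *Itga4* and *Itgb1* of VLA-4. With Spearman's correlation 11 of the 27 listed genes were the same.

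Other adhesion genes moved in both directions. Of 89 listed for context, 58, 58 and 56 were tested at 3, 9 and 18 months, of which 12, 11 and 9 were higher and 15, 12 and 8 lower at D12. Of all genes tested, 13.1%, 8.68% and 8.94% were higher and 10.7%, 6.11% and 5.48% lower. The same shares stand beside the counts of each list below. Those counts rest on few genes, several are near these shares, and no list was tested as a set. Among the other integrin alpha subunits 3 of 8, 1 of 6 and 1 of 6 tested were higher and 1 lower at each age, and *Itgax*, which encodes CD11c, rose at every age (log2 fold changes 3.61 ± 0.22, 1.52 ± 0.45 and 2.10 ± 0.28), and of the 2 other beta subunits tested *Itgb3*, the partner of the alpha v subunit, fell at every age (-2.31 ± 0.37, -2.59 ± 0.43 and -2.16 ± 0.36). The other immunoglobulin-superfamily adhesion molecules had 0, 0 and 1 of 8 tested higher and 2, 2 and 1 lower, with *Jam2*, a junctional adhesion molecule, down at every age (-2.40 ± 0.20, -1.91 ± 0.27 and -1.20 ± 0.22).

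Of the selectins and their ligands, 4 were tested at each age, where 0, 1 and 0 were higher and 2, 2 and 1 lower at D12, including *Selplg*, the P-selectin ligand, at every age (-1.94 ± 0.17, -2.13 ± 0.32 and -1.24 ± 0.27). The matrix ligands had 3 of 7, 4 of 8 and 2 of 7 higher and 1, 2 and 1 lower. *Fn1*, fibronectin, a ligand of VLA-4, rose by 6.08 ± 0.68, 11.74 ± 1.49 and 3.47 ± 0.87, and *Spp1*, osteopontin, which binds CD44 and integrins, by 2.77 ± 0.50, 3.64 ± 0.76 and 2.84 ± 0.81, while *Tgfbi* rose at 3 and 9 months (0.85 ± 0.22 and 2.35 ± 0.40) and had -0.06 ± 0.37 at 18 months. Among the partners of CD44, 2 of 8, 3 of 9 and 2 of 8 were higher and 2, 0 and 1 lower, and *Mmp14*, a membrane protease that cleaves it, rose at every age (2.12 ± 0.25, 3.09 ± 0.45 and 1.22 ± 0.29), whereas *Lyve1*, a hyaluronan receptor that also marks border macrophages, fell at 3 and 18 months (-8.02 ± 1.35 and -5.35 ± 1.54).

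Integrin activation and linkage to actin counted 4, 2 and 3 of 21 genes higher and 6, 4 and 2 lower at D12. *Skap1*, an adaptor for LFA-1 activation that is also on the T cell marker list, rose at every age (6.16 ± 1.08, 7.62 ± 1.32 and 2.90 ± 0.88). All the changes named for these genes passed the edgeR test at an adjusted p below 0.05 where the word rose, fell or down is used. As for *Itgal*, the size of a fitted change depends on edgeR's prior count where a group is near 0. *Skap1* was at 0 in 14 of 19 naive libraries. *Lyve1* had a naive median of 2.04 CPM and was at 0 in 20 of 22 D12 libraries. Levels of *Fn1* are not given here, so the size of its fitted changes should be read with the same care.

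**Figure D5:**
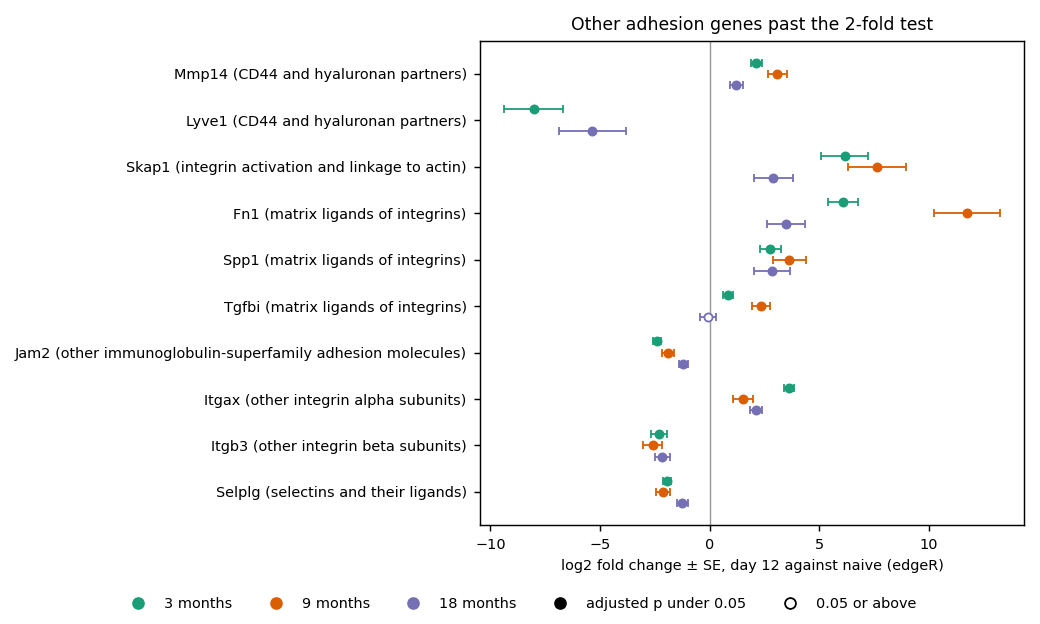
Log2 fold changes with standard errors at day 12 against naive for the named adhesion genes outside the 9, by age; filled points passed an adjusted p of 0.05 in edgeR and open points did not, and *Lyve1* at 9 months, whose fit gave no usable error, is not drawn. *Itgax*, *Mmp14*, *Skap1*, *Fn1* and *Spp1* lie right of 0 at every age and *Itgb3*, *Jam2* and *Selplg* left of 0.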

How the data were processed

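Retinal microglia were sorted by their tdTomato label, 600 viable cells per retina. Tamoxifen eye drops and a washout came before an intravitreal injection of 2 µL of AAV2 (1E10 genome copies per eye), and naive eyes were not injected. The authors made SMART-Seq v4 cDNA and Nextera XT libraries, which do not mark strand, aligned reads to mm10 with STAR 2.7.8a, counted genes with featureCounts and corrected the counts for collection day with ComBat-seq. bcl2fastq 2.20 and R 4.2.2 are also named in the submitters' processing notes. The deposited values used here were whole-number counts per gene, batch-corrected (62 libraries) and, as an alternative, uncorrected. Batch correction changes low counts, so within-day differences come from the uncorrected table.

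CPM is a count divided by the library total. Tests used edgeR 4.0.16 (R 4.3.3) with filterByExpr, TMM scaling and the quasi-likelihood test on means of 18 groups of age, sex and day, averaged over sexes, with 1 fit per age for days, 1 per day for ages and 1 over all libraries for age by day. Calls needed a Benjamini-Hochberg adjusted p below 0.05 (days) or 0.1 (ages and interactions), over all genes tested, and 2-fold calls tested against a log2 fold change of 1 (glmTreat). The SE is the log2 fold change divided by the root of F. The code was tested on simulated data. DESeq2 1.42.0, other filters, scalings, library sets and left-out libraries were alternatives. No 2 libraries of a group were identical (79 pairs).

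All 9 members are named. Of each context list at most 3 genes are named, those past 2-fold at D12 at the most ages, and of all genes the 3 with the highest correlation to each member. The members and lists were chosen with earlier results of these data known. One library was left out by rule and 1 was present only before batch correction. Protein sequences were not used here, and 1 motif search is not reported here.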

Additional observations from a re-analysis of the deposited data

Results flagged for a closer look

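Each member was examined in the groups of age, sex and day that held 4 libraries, and smaller groups were not tested. In 10 of these 81 cases 1 library lay apart from the other 3 by Dixon's 95% criterion, which chance alone meets in about 1 in 20 groups. Of the 10, 3 were the same library, 9-month male D12 replicate 1, with *Icam1* at 741 CPM, *Itgb2* at 1594 CPM and *Itgb7* at 38.8 CPM. For *Icam1* the others were female D28 replicate 3 (49.1 CPM) and female naive replicate 4 (165 CPM) at 3 months and male D28 replicate 1 (74.6 CPM) at 18 months. *Itgam* was low in 18-month male D28 replicate 4 (225 CPM), the library with 2 day labels, and in male naive replicate 1 (199 CPM). *Itga4* was at 13.5 CPM in 18-month female D12 replicate 3, and *Itgb2* at 499 CPM in 3-month female D12 replicate 3.

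Some members were also above every naive library of the labeled age in 2 libraries outside the comparisons. Both libraries went against their sex labels, and whether their age labels hold was not tested. The library labeled 18-month female D28 replicate 1, whose *Xist* was at 0 and whose Y-linked genes summed to 388 CPM, held *Vcam1* at 67.2, *Icam1* at 122, *Itgal* at 41.3, *Itga4* at 13.2 and *Itgb7* at 12.1 CPM. The library labeled 9-month male D28 replicate 1, present only in the uncorrected counts, had *Xist* at 255 CPM and no Y-linked reads, and held *Vcam1* at 131, *Icam1* at 134, *Cd44* at 39.6, *Itgal* at 26.8, *Itga4* at 14.5 and *Itgb7* at 6.33 CPM. Its *Icam1* and *Itgb7* were below the highest uncorrected naive values at 18 months (143 CPM in female replicate 1 and 7.23 CPM in female replicate 3).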

How the results depend on the processing

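No value changed sign as a called change under any alternative. Of the 34 counts of members called, DESeq2 size factors in edgeR and uncorrected counts with collection day as a term moved none by over 1.5 times, and neither did keeping the library left out by rule in its labeled group, for the 14 counts run that way. Uncorrected counts with that term ended 2 single calls, *Itgb7* at D12 at 18 months (2.10) and *Icam1* at D28 against D12 at 9 months (-0.81). Uncorrected counts without it ended 6, these and *Itga4* at D12 at 9 months, *Itgb2* at D12 at 3 months, *Itgb7* at D28 against D12 at 3 months and *Cd44* at D28 at 9 months. DESeq2 gave 6 members (from 3) lower at D28 than at D12 at 9 months, 1 (from 0) differing at 18 against 3 months at D28 and 1 (from 0) with an age difference in the D12 change at 18 months. Without the low-count filter these 3 counts were 5, 1 and 1, 2-fold calls at D28 at 18 months went from 1 to 2, and 4 counts of 0 became 1 (9 against 3 months at D12, the age difference in the D28 change at 18 months, and the sex differences at 3 months on both days). One fit of all libraries gave 2 (from 4) and 6 (from 3) lower at D28 than at D12 at 3 and 9 months and 2 (from 1) past 2-fold at D28 at 18 months. That last count was 0 with uncorrected counts and no batch term, with the library of 2 day labels left out or set to D12 (which also gave 1 age difference in the D12 change, from 0), and under the replicate block.

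In females alone, with fewer libraries, counts at 18 months were 0 at D12 (from 6), 0 past 2-fold (from 2), 0 at D28 (from 3) and 0 past 2-fold at D28 (from 1). At 3 months they were 2 at D28 (from 4), 1 past 2-fold (from 2) and 0 lower at D28 than at D12 (from 4), and at 9 months 1 lower (from 3). In males alone, counts lower at D28 than at D12 were 1, 0 and 1 at 3, 9 and 18 months (from 4, 3 and 0), 0 members were called at D28 at 9 months (from 4), and 0 were past 2-fold at D28 at 9 and 18 months (from 3 and 1). The share of all genes called in these fits is not given here, so fewer calls among the members cannot be told from fewer calls in general.

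With each of the 62 libraries left out in turn, the counts at 3, 9 and 18 months ranged over 4 to 7, 4 to 7 and 4 to 6 at D12, over 4 to 4, 3 to 4 and 2 to 3 at D28, and over 3 to 5, 2 to 5 and 0 to 1 for D28 against D12. Past 2-fold they ranged over 4 to 4, 4 to 4 and 2 to 3 at D12 and 2 to 3, 2 to 3 and 0 to 2 at D28. The age counts at 18 against 3 months at D28 and 9 against 3 months at D12 ranged over 0 to 1, and all other counts stayed at 0. For age by day only the 19 naive libraries were left out.

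Replicate numbers did not pair the libraries: same-numbered libraries of one age deviated together with a mean correlation of -0.0187 over 135 pairs, against 0.00638 over 398 other pairs. With the replicate block 113 single-member results kept their call, and those that did not were *Itga4* at D12 (1.56 at 18 months, no longer called, and 1.57 at 3 months, now called), *Icam1* at D28 against D12 at 9 months (-0.89) and *Cd44* at D28 at 9 months (1.66), the last 2 no longer called. Levels near the floor of 0.305 to 2.04 CPM limit the naive values of *Itgal* and *Itgb7*.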
